A study of Mus musculus with 16 samples.

Results

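Aminoacyl-tRNA synthetases are the enzymes that load each transfer RNA with its amino acid, and they form a family of nuclear genes with 1 set for the cytosol and another for the mitochondria. The 35 genes described here were found by symbol in the deposited expression table and are 19 cytosolic and 16 mitochondrial synthetases among 36930 entries. The genes were chosen by family, and the measured value that bore on the choice was the genotype difference of Mars, the cytosolic methionyl-tRNA synthetase, which was left out for it and serves as a comparator. The question was whether the other synthetases shifted as Mars did. All 35 genes had reads in all 16 pups and all passed the filter on low values, which left 21183 genes.

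RNA was sequenced from the cortex of 16 mouse pups at postnatal day 7, 8 of them Avil-ChR2 and 8 ChR2-flfl, all on a C57BL6 background. Both genotypes carried the floxed ChR2/td-Tomato construct, and the ChR2-flfl pups, which had no Cre recombinase, served as the controls. In Avil-ChR2 pups Cre under the advillin promoter removes the stop in front of the light-gated channel ChR2, and it was meant to do so mainly in peripheral nociceptors, so that the tissue sequenced was not the one aimed at by the light. Both genotypes were exposed to blue light for 1 h per day from postnatal day 1 to 5. The pups fell into 2 runs of pup numbers, 26 to 33 and 35 to 42, with 4 pups per genotype in each. The labels name 4 female and 4 male ChR2-flfl pups, and 5 female and 3 male Avil-ChR2 pups. Between 30549126 and 48711134 reads were counted per pup, the lowest in ChR2-flfl replicate 3. Values are CPM, read counts relative to the library size of a pup, scaled by the TMM method. Each pup was a separate animal, and litters were not used here.

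Synthetases recognise one amino acid and its transfer RNAs, and they use ATP to join the 2 before the loaded transfer RNA is handed to an elongation factor. Several of the cytosolic enzymes, among them that encoded by Mars, sit in the multisynthetase complex, which is held together by scaffold proteins. Mitochondrial synthetases are imported and serve the translation of the few proteins encoded by mitochondrial DNA. Gars and Kars each encode both the cytosolic and the mitochondrial enzyme for their amino acid. Mutations in synthetase genes are a known cause of peripheral neuropathy and of diseases of brain white matter. When loaded transfer RNAs run short, a kinase of the initiation factor eIF2alpha becomes active and translation of the transcription factor ATF4 increases, and many cytosolic synthetase genes are known ATF4 targets.

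The labels and the tissue were checked first. Avil, whose promoter drives Cre, was listed at 1.07 ± 0.199 CPM in ChR2-flfl and 39.7 ± 2.89 CPM in Avil-ChR2 pups (mean ± SD, n = 8 each), and the groups did not overlap. The Y-linked gene Ddx3y stood at 54.7 CPM and Eif2s3y at 64.6 CPM in Avil-ChR2 replicate 4, which is labelled female. These levels were those of the pups labelled male, and a supplement of the study lists the pup as male. Xist had a value in only 2 of the 16 pups, with 571 CPM in Avil-ChR2 replicate 3, so an empty entry need not mean lack of expression. In the fits, missing values were nevertheless set to the lowest value allowed, as described under data processing. No synthetase value was empty. Tbr1, a transcription factor of cortical projection neurons, was found at 106 ± 13.8 CPM in ChR2-flfl pups, and Neurod6, another of these factors, at 198 ± 25.01 CPM, so these markers of the labelled tissue were present.

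Cytosolic synthetases were on the whole more abundant than mitochondrial ones. Levels were compared between genes as mean CPM per kb of the longest coding transcript over 16 pups. The median level was 36.4 CPM per kb over the 19 cytosolic genes, with a range of 10.6 to 83.2 CPM per kb, and 6.19 CPM per kb over the 16 mitochondrial genes, with a range of 1.16 to 129 CPM per kb. Among the cytosolic genes, Nars (asparagine) had the highest level per length with 83.2 ± 3.09 CPM per kb (SD, n = 16), followed by Gars (glycine) with 77.9 ± 2.05 and Hars (histidine) with 62.0 ± 1.63 CPM per kb. The pups' values for Nars and Gars overlapped. Tars (threonine) was lowest with 10.6 ± 0.416 CPM per kb. The order depends on the length used: per kb of coding length Nars was still the highest cytosolic gene, but Sars came second with 94.4 CPM and Vars was lowest with 16.2 CPM. Per kb of transcript, Mars would have stood between Lars and Iars, with 21.9 ± 1.24 CPM per kb. Per kb of coding length it would have stood between Rars and Tars among the cytosolic genes, with 23.7 CPM.

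Lars2, which loads leucine in mitochondria, had the highest level of all 35 genes, with 129 ± 10.4 CPM per kb. Its lowest pup was above the highest pup of Nars, and it was also the highest gene when the coding length was used. The next mitochondrial gene was Rars2 (arginine) with 14.2 ± 0.954 CPM per kb, whereas per kb of coding length it was Hars2 with 20.9 CPM. The lowest was Mars2 (methionine) with 1.16 ± 0.0782 CPM per kb, whose longest transcript of 11294 bases is long for a coding length of 1758 bases, and per coding length Ears2 (glutamate) was lowest. Of the 34 pairs of neighbours in the order of levels, 9 did not overlap between any pups, so most neighbours in the order did not differ beyond the spread between pups.

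Among the 35 genes, which leave out Mars, 12 amino acids have a cytosolic and a mitochondrial gene with matching names, and the cytosolic gene had the higher level per length in 11 of these pairs. In 10 pairs the lowest pup of the cytosolic gene was above the highest pup of the mitochondrial gene. The ratio of cytosolic to mitochondrial level was highest for asparagine, where Nars stood 20.2 times above Nars2, and for tryptophan, where Wars stood 16.1 times above Wars2. It was 1.01 for Tars and Tars2, whose pups overlapped. The leucine pair was the exception, with Lars at 0.179 times the level of Lars2. The same 11 of 12 pairs had a ratio above 1 per coding length, with a median ratio of 3.29 in place of 3.60, but the order changed, with Sars over Sars2 highest at 14.5, Nars over Nars2 at 12.5 and Wars over Wars2 at 7.71.

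**Figure D1:**
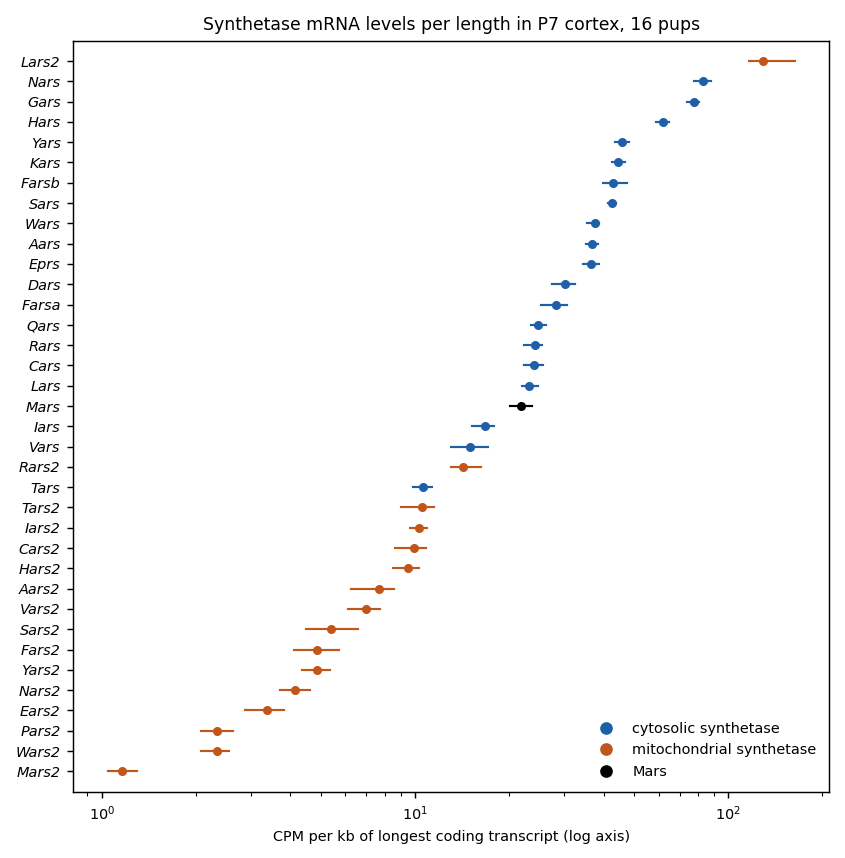
Level of each synthetase gene and of Mars in CPM per kb of the longest coding transcript, on a log axis. Points are means over 16 pups and lines run from the lowest to the highest pup. Lars2 lies apart at a mean of 129 CPM per kb. The means of the other mitochondrial genes (orange) reach at most 14.2 CPM per kb.

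The cytosolic genes varied little between pups. The SD of log2 CPM within genotype had a median of 0.0503 over the cytosolic genes, from 0.0216 in Sars (serine) to 0.120 in Vars (valine). It had a median of 0.0988 over the mitochondrial genes, from 0.0622 in Iars2 (isoleucine) to 0.158 in Sars2. The median over the 11144 genes in the same range of mean log2 CPM was 0.0833. The mitochondrial genes mostly had lower counts, down to 228 reads in a pup for Ears2. Spread did not follow counts in every gene, since Lars2, the highest in level, had an SD of 0.111. The part of the counts in the spread was not tested.

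No other synthetase was called between genotypes as Mars was. By limma over all genes, 2 of 21183 genes (0.00944%) had an adjusted p under 0.05, and these were Avil and Mars itself. The adjusted p of Mars was 0.0215 by limma. The call was lost in 10 of the 16 fits that left out 1 pup (adjusted p from 0.0536 to 0.0845). It was also lost with median centring (0.125), with pups blocked by replicate number (0.506) and within either run of pup numbers. None of the 35 synthetases was among the 2 genes called, with adjusted p from 0.908 to 1.00 by limma. Limma's voom on whole reads also called none, and Yars was at an unadjusted p under 0.05 in both. At an unadjusted p under 0.05, limma gave 1 of 35 synthetases higher in Avil-ChR2 pups, where 1.95% of all genes were, and 0 lower, where 3.46% of all genes were (5.41% in either direction). Because Mars was set apart by its value in the same contrast, these counts are a description of the rest of the family. The adjusted p and the interval of Mars are, for the same reason, a description and not a test. For none of the 35 genes were the groups free of overlap, against 0.0142% of all genes in each direction.

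In ChR2-flfl pups, Mars had a lowest, median and highest value of 66.1, 68.0 and 70.2 CPM. In Avil-ChR2 pups these were 59.5, 61.8 and 62.8 CPM. All 8 Avil-ChR2 pups were below all 8 controls, and the log2 difference was -0.15, or -9.78%. Its 95% interval ran from -0.20 to -0.10. Every cytosolic synthetase had a 95% interval that lay wholly above the difference of Mars, and so did 15 of the 16 mitochondrial ones, as did 51.3% of all genes. The exception was Fars2, with an interval from -0.17 to 0.08. The difference of Mars entered here as a fixed value without its own interval, and Mars had been set apart for it. Whether any synthetase differed from Mars was therefore not tested. The largest difference among the 35 genes was 0.0509 in size, whereas 22.1% of all genes differed by at least as much as Mars.

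Differences of the cytosolic genes were small and mostly above 0. Their median was 0.0163 on the log2 scale, with 0.00199 over all genes, and 17 of the 19 had a difference above 0, as had 51.4% of all genes. The median was 0.00894 without Avil-ChR2 replicate 6 and 0.0253 without ChR2-flfl replicate 6. Half-widths of their 95% intervals had a median of 0.0584, more than the median difference. The summed level of the 19 genes was 2041 CPM at the lowest, 2071 at the median and 2146 at the highest in ChR2-flfl pups. In Avil-ChR2 pups it was 2064, 2114 and 2127 CPM. The groups overlapped, and the highest pup of all was a control, replicate 6. The next control stood at 2085 CPM, so the overlap above that value rested on replicate 6 alone.

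Yars, which encodes the tyrosyl-tRNA synthetase, was the gene at an unadjusted p under 0.05. Its lowest, median and highest values were 127, 132 and 136 CPM in ChR2-flfl pups and 131, 136 and 141 CPM in Avil-ChR2 pups. All 8 Avil-ChR2 pups were above the control mean and 4 of them above the highest control. The log2 difference was 0.05 ± 0.0232 (SE), or 3.59%, with an unadjusted p of 0.0408 and an adjusted p of 0.908 by limma. Yars stayed under the unadjusted threshold in 15 of 28 alternative settings, with p from 0.0158 to 0.233. The table places Yars next to C77080 on the opposite strand with an overlap of 30 bases, and whether the counting used strand is not stated.

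Among the other cytosolic genes, Tars came next with a log2 difference of 0.05 ± 0.0297 and an unadjusted p of 0.109 by limma, and Hars had 0.03 ± 0.0226, with all 8 Avil-ChR2 pups above the control mean. Vars had the most negative difference. Its lowest, median and highest values were 54.2, 61.7 and 70.8 CPM in ChR2-flfl pups and 54.1, 60.4 and 68.3 CPM in Avil-ChR2 pups. The groups overlapped almost fully, and the log2 difference was -0.02 ± 0.054. Its sign rested on single pups, with 0.00716 without ChR2-flfl replicate 1, 0.00754 without replicate 5 of that group and 0.00672 without Avil-ChR2 replicate 6. Nars, the cytosolic gene with the highest level, had 213, 227 and 241 CPM in ChR2-flfl and 220, 229 and 242 CPM in Avil-ChR2 pups, a log2 difference of 0.02 ± 0.0282. This difference was 0.0122 without ChR2-flfl replicate 1 and 0.0372 without replicate 6 of that group, and the groups overlapped for Nars too. Farsa, a subunit of the phenylalanine enzyme, had a log2 difference of 0.04 ± 0.0374, and Cars (cysteine) had 0.02 ± 0.0286.

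Of the cytosolic genes, 7 encode enzymes of the multisynthetase complex, to which the product of Mars belongs. These were Dars (aspartate), Eprs (glutamate and proline), Iars (isoleucine), Kars (lysine), Lars (leucine), Qars (glutamine) and Rars (arginine). Their log2 differences lay between -0.00302 for Eprs and 0.02 for Qars, with a median of 0.0150. Of the 3 scaffold genes of the complex, none had an unadjusted p under 0.05 by limma, where 5.41% of all genes were. Aimp1 had a log2 difference of 0.04 ± 0.0391, Aimp2 one of 0.00783 and Eef1e1 one of -0.03 ± 0.0428. The groups overlapped for every one of these genes.

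**Figure D2:**
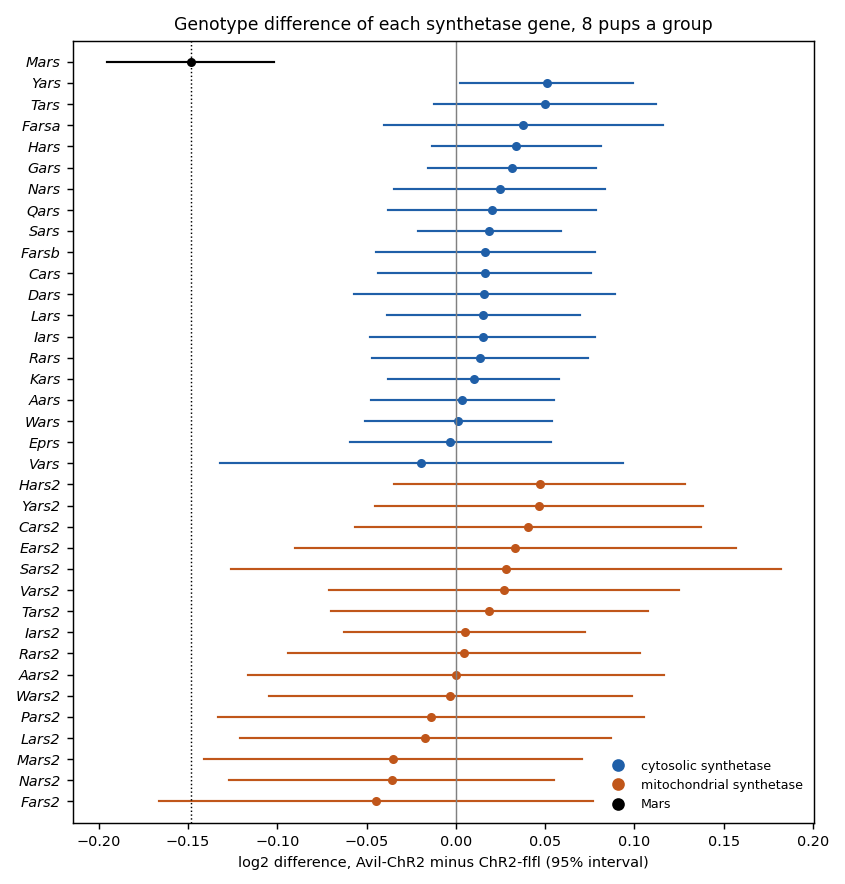
Log2 difference of each gene, Avil-ChR2 minus ChR2-flfl, with its 95% interval (n = 8 pups per group). The dotted line marks the difference of Mars at -0.15; 34 of the 35 intervals lie to its right, and that of Fars2 crosses it.

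Mitochondrial synthetases were centred on no difference. Their median log2 difference was 0.00484, 10 of the 16 were above 0, and the median half-width of their intervals was 0.1002. Summed levels were 760, 802 and 954 CPM at the lowest, median and highest in ChR2-flfl pups, and 778, 814 and 828 CPM in Avil-ChR2 pups. The Avil-ChR2 range lay within that of the controls. The median fell to -0.00749 without ChR2-flfl replicate 8 and to -0.00112 without Avil-ChR2 replicate 5, so its sign rested on single pups.

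Hars2, the mitochondrial histidine enzyme, had the largest positive difference of the mitochondrial genes over all 16 pups. Its lowest, median and highest values were 28.4, 30.7 and 34.2 CPM in ChR2-flfl and 30.0, 32.4 and 34.4 CPM in Avil-ChR2 pups, a log2 difference of 0.05 ± 0.0391. It was 0.0286 without ChR2-flfl replicate 3, and with other pups left out Cars2, Yars2, Sars2 or Ears2 had a larger difference. The groups overlapped, with 6 of 8 Avil-ChR2 pups above the control mean. Hars and Hars2 lie head to head on chromosome 18 with 26 bases between them. Fars2, which loads phenylalanine, had the most negative difference. It had 8.76, 10.4 and 12.1 CPM in ChR2-flfl and 9.26, 10.3 and 10.8 CPM in Avil-ChR2 pups, a log2 difference of -0.04 ± 0.0582, and all Avil-ChR2 pups lay within the range of the controls. The difference was -0.0144 without ChR2-flfl replicate 1 and -0.0816 without replicate 7 of that group.

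Lars2 had 454, 489 and 637 CPM in ChR2-flfl pups and 474, 500 and 511 CPM in Avil-ChR2 pups. ChR2-flfl replicate 5 stood above all other pups, and the Avil-ChR2 pups lay within the control range. The log2 difference was -0.02 ± 0.0498, and it was 0.03 without that pup. Mars2, the mitochondrial counterpart of Mars, had a log2 difference of -0.04 ± 0.0506 and an unadjusted p of 0.493 by limma, with 12.01, 13.1 and 14.6 CPM in ChR2-flfl and 11.8, 13.4 and 14.04 CPM in Avil-ChR2 pups. The groups overlapped. Mars2 shares 674 bases with Boll on the opposite strand, a gene listed at 66.1 CPM, so its counts are less certain than most. It is 1 of 6 synthetases that overlap a gene of the other strand with at least 1 CPM. Of these, Aars shares 3974 bases with Ddx19b and Pars2 shares 269 bases with Ttc4. Of the mitochondrial genes not described elsewhere, Cars2 (cysteine) had a log2 difference of 0.04 ± 0.0464, Vars2 (valine) 0.03 ± 0.047, Aars2 (alanine) 0.000131, Pars2 (proline) -0.01 ± 0.0572 and Nars2 (asparagine) -0.04 ± 0.0436, the lowest t of the family. The groups overlapped for all 5.

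**Figure D3:**
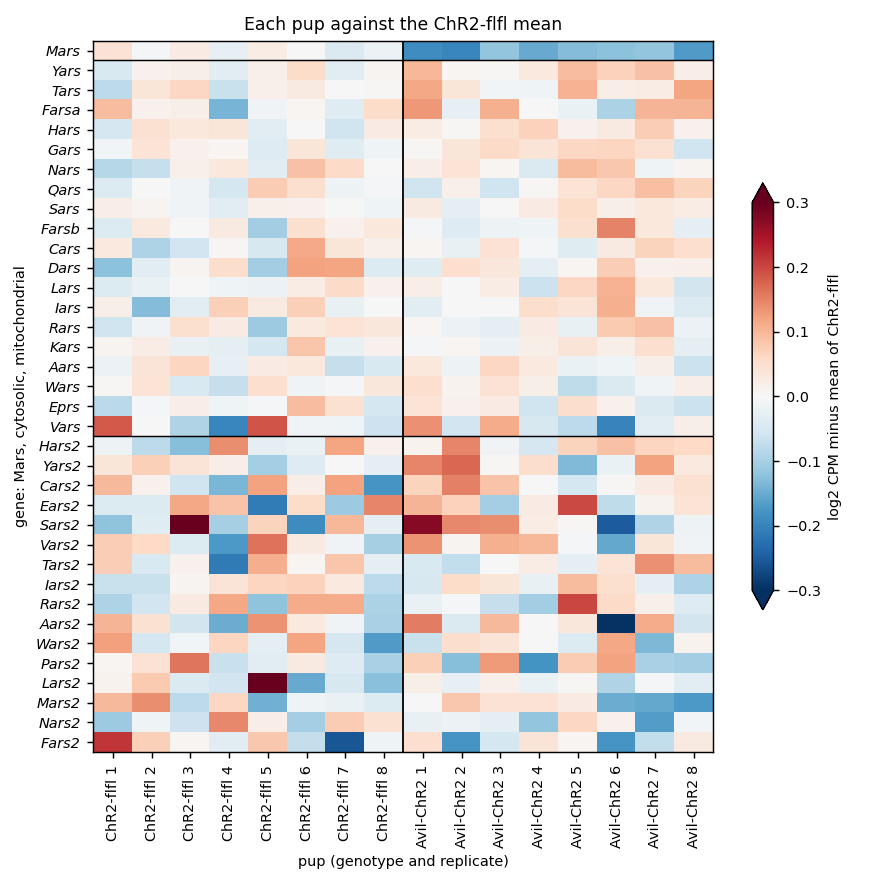
Log2 CPM of each gene in each pup minus the mean of the 8 ChR2-flfl pups, with Mars on top, then the cytosolic and the mitochondrial genes, each ordered by genotype difference. The row of Mars is blue in all 8 Avil-ChR2 pups and is the row in which none of these values overlaps those of the controls, whereas Yars and Hars lie above the control mean in all 8 but overlap the controls; Lars2 in ChR2-flfl replicate 5 and Sars2 in ChR2-flfl replicate 3 lie beyond the end of the colour scale.

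Tarsl2, a cytosolic threonyl-tRNA synthetase like Tars, is not among the 35 genes. It had 59.0 ± 2.76 CPM in ChR2-flfl and 60.3 ± 3.20 CPM in Avil-ChR2 pups, a log2 difference of 0.03 ± 0.0357, and the groups overlapped.

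Differences of the synthetases were then compared between the 2 runs of pup numbers, with 4 pups per genotype in each. Mars had a log2 difference of -0.17 in pups 26 to 33 and of -0.13 in pups 35 to 42. Within each run, limma gave 1 gene (0.00472%) an adjusted p under 0.05 and no synthetase, and no synthetase was at an unadjusted p under 0.05 either, where 3.17% and 5.47% of all genes were. Across the 35 synthetases, differences ranged from -0.10 (Fars2) to 0.13 (Sars2) in the first run and from -0.10 (Vars) to 0.07 (Ears2) in the second. The sign was the same in both runs for 12 of 19 cytosolic and 6 of 16 mitochondrial genes, as it was for 54.5% of all genes. Yars kept its direction, with 0.05 in the first and 0.06 in the second run, whereas Sars2 had 0.13 and -0.08 and Vars 0.06 and -0.10. A genotype by run interaction gave no synthetase an adjusted or unadjusted p under 0.05 by limma, with 3.04% of all genes at an unadjusted p under 0.05.

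**Figure D4:**
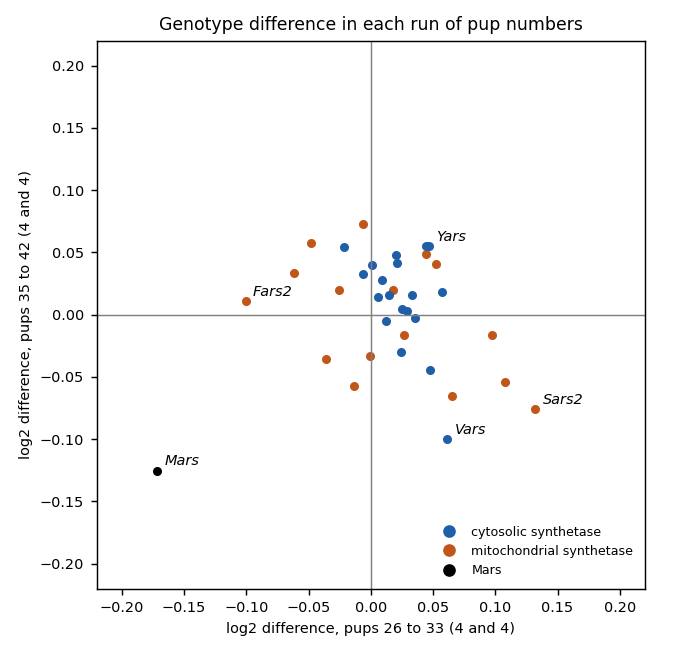
Log2 genotype difference in pups 26 to 33 (x axis) and in pups 35 to 42 (y axis), 4 pups per genotype in each, for the 35 synthetases and Mars. Mars lies at -0.17 and -0.13, and the synthetases lie around 0 in both directions.

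The run itself, which does not enter the choice of the genes, was compared with genotype as a covariate. By limma, 26 of 21183 genes (0.123%) differed at an adjusted p under 0.05 and no synthetase did, with a lowest adjusted p of 0.195. At an unadjusted p under 0.05 there were 4 of 35 synthetases, where 12.5% of all genes were. Mars2 had a log2 difference of -0.13 and Yars2 (tyrosine) one of -0.09 in pups 35 to 42 compared with pups 26 to 33. Qars had 0.07 and Tars2 0.09. Mars had 0.0048, with an unadjusted p of 0.836 by limma. Sex also differed between the runs, since 6 of 8 pups were labelled female in 26 to 33 and 3 of 8 in 35 to 42. With sex added as a covariate, limma gave 3 synthetases an unadjusted p under 0.05, where 11.9% of all genes were, and none an adjusted p under 0.05. Tars2 was no longer among them, with a log2 difference of 0.06 and an unadjusted p of 0.132. The labelled sex was used, in which Avil-ChR2 replicate 4 is female, and the fit was not repeated with the sex of the supplement.

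Female and male pups were compared in the same way. With the labelled sex, 9 of 21183 genes (0.0425%) had an adjusted p under 0.05 by limma, and with the sex of the supplement 11 genes (0.0519%). No synthetase was called with either, also at an unadjusted p under 0.05, where 4.46% and 3.46% of all genes were. Leaving out Avil-ChR2 replicate 4, the pup whose sex differed between the sources, also gave 0 synthetases at an adjusted p under 0.05. By labelled sex, the log2 differences of female minus male pups lay between -0.08 (Tars2) and 0.08 (Mars2). In the genotype by sex interaction, Farsb (phenylalanine) had an unadjusted p of 0.0469 by limma, with 4.31% of all genes under 0.05 and an adjusted p of at least 0.993 for every synthetase. The interaction was fitted with the labelled sex only.

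Genes that act next to the synthetases were described by fixed lists. Of 4 genes for the amidation and formylation of mitochondrial transfer RNAs, 4 for selenocysteine, and 4 for proofreading, none had an unadjusted p under 0.05 by limma in either direction, against 5.41% of all genes. Qrsl1, a subunit of the enzyme that makes mitochondrial glutaminyl-tRNA, lies on chromosome 10 as do Avil and Mars and had a log2 difference of -0.03 ± 0.0437. Mtfmt, which formylates the initiator methionyl-tRNA in mitochondria, had the lowest t of its list with a log2 difference of -0.06 ± 0.048, and Gatc the highest with 0.00845. Sepsecs, which completes selenocysteine on its transfer RNA, had -0.12 ± 0.063, and the elongation factor Eefsec 0.01 ± 0.0554. Among the proofreading genes, Prorsd1 had -0.08 ± 0.0944 and Aarsd1 0.04 ± 0.0276. All of these groups overlapped.

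The 10 elongation factors, which receive the loaded transfer RNAs or move the ribosome, also had no gene at an unadjusted p under 0.05 by limma, against the same 5.41%. Their median log2 difference was 0.0167. Eef1a1, the most abundant with 1773 ± 25.7 CPM in ChR2-flfl and 1749 ± 79.1 CPM in Avil-ChR2 pups, had a log2 difference of -0.02 ± 0.0283. Its paralog Eef1a2 had 0.07 ± 0.0423. Of the factors on chromosome 10, Eef2 had 0.00536 and Tsfm, whose gene lies between Avil and Mars, had -0.01 ± 0.0536.

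No member of the eIF2alpha and ATF4 pathway had an adjusted p under 0.05 by limma, although their differences spread more widely than those of the synthetases, from -0.11 to 0.19. Among 6 genes of eIF2alpha kinases and phosphatase subunits, 1 had an unadjusted p under 0.05 by limma, and it was higher in Avil-ChR2 pups, where 1.95% of all genes were. It was Ppp1r15a, a stress-induced subunit of the phosphatase that acts on eIF2alpha, with 12.9 ± 0.518 CPM in ChR2-flfl and 13.7 ± 0.667 CPM in Avil-ChR2 pups. The log2 difference was 0.09 ± 0.0394, with an adjusted p of 0.897. Eif2ak4, the kinase that senses uncharged transfer RNA, had -0.06 ± 0.0333.

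Of 26 genes of the ATF4 amino acid response, 24 were tested, since Nupr1 did not pass the filter and Vldlr was empty in all pups. Their median log2 difference was 0.0134, with 16 above 0, as were 51.4% of all genes. At an unadjusted p under 0.05 by limma there was 1 of the 24, against 5.41% of all genes in either direction. It was Cth, an enzyme of cysteine synthesis, with 5.95 ± 0.875 CPM in ChR2-flfl and 6.73 ± 0.565 CPM in Avil-ChR2 pups, a log2 difference of 0.19 ± 0.0843 and an adjusted p of 0.892. This difference was larger in size than that of Mars. Slc7a11, the cystine transporter, had the lowest t with -0.11 ± 0.0581. Atf4 itself had 97.7 ± 4.65 and 101 ± 2.64 CPM, a log2 difference of 0.05 ± 0.0292. In the genotype by run interaction, limma gave 3 of the 24 genes an unadjusted p under 0.05, Atf4 among them, where 3.04% of all genes were. None had an adjusted p under 0.05. Within pups 35 to 42, Atf4 was the 1 gene of the 24 at an unadjusted p under 0.05 by limma, where 5.47% of all genes were. The list also has 3 genes on chromosome 10. Ddit3, a transcription factor of the stress response whose gene overlaps that of Mars by 68 bases on the other strand, had -0.02 ± 0.0417, the serine enzyme Shmt2 had 0.04 ± 0.056 and Ddit4 had -0.01 ± 0.0686. The groups overlapped for all of these genes.

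**Figure D5:**
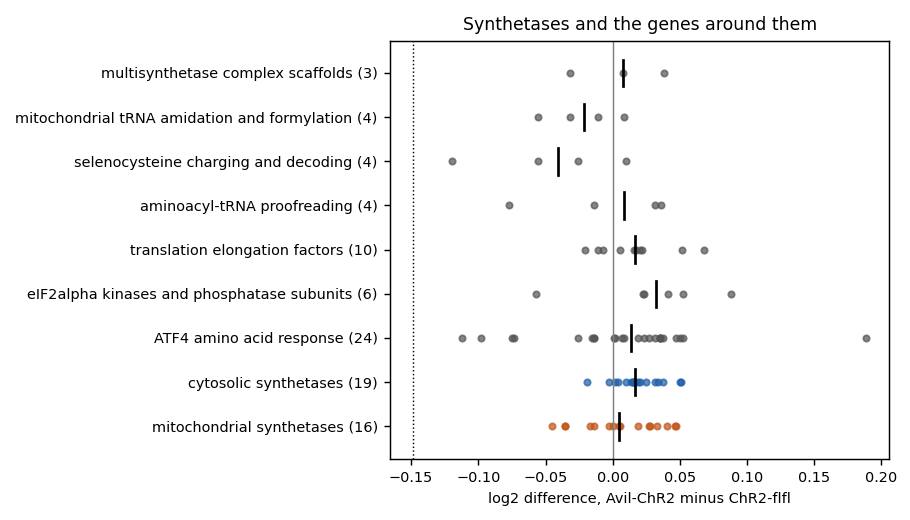
Log2 genotype difference of every tested gene of each list (points, number of genes in brackets) with the median as a bar. The dotted line marks Mars at -0.15, and no gene of any list shown reaches it; Cth lies farthest to the right at 0.19.

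Because ATF4 is known to bind a composite C/EBP-ATF site, the core TGATGNAA was searched on both strands in the RefSeq promoters of GRCm38.p6, from 250 bases before to 50 after each start. Promoters were found for 26 of the 35 synthetases. The core was present in 5 of 12 cytosolic genes (41.7%) and 0 of 14 mitochondrial genes, and in 3.97% of all 32851 promoters. It was not in the promoter of Mars. The windows of 30 bases below are shown because they hold the match nearest the start in each of the 5 genes, written 5′ to 3′ along the gene with the match in capitals. Capitals that read TTNCATCA are the core on the other strand. Positions are counted from the RefSeq start, which for Gars, Tars and Iars is also the start in the deposited table, whereas for Yars it lies 138 bases and for Aars 6064 bases inside the gene as that table places it. The match in Yars starts at base 4 after the RefSeq start, and those in Gars, Tars, Iars and Aars start at bases -30, -15, 8 and 10.
Yars, chr4:129189895-129189924, plus strand: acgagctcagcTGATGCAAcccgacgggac
Gars, chr6:55037960-55037989, plus strand: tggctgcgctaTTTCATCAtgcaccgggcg
Iars, chr13:49682126-49682155, plus strand: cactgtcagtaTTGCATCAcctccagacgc
Tars, chr15:11399655-11399684, minus strand: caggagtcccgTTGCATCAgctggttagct
Aars, chr8:111033840-111033869, plus strand: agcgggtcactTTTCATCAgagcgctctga
The log2 differences of these genes were 0.05 for Yars and Tars, 0.03 for Gars, 0.02 for Iars and 0.00362 for Aars. They covered most of the range of the cytosolic genes, and a match is a description of the sequence and not a binding site.

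The position of Mars differs from that of its family. Mars lies on chromosome 10 at 127296221-127311786 (GRCm38, minus strand), 275227 bases from Avil at 127000075-127020994. The 35 synthetases lie on 14 other chromosomes, and none is on chromosome 10. Tsfm and Ddit3, which lie between Avil and Mars or overlap Mars, had the values given above. Whether the position of Mars near Avil bears on its genotype difference was not tested. All pups were exposed to light, and the genotypes were defined by Cre. Carrying Cre, the region near Avil and the response to light were therefore not separated.

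Markers of other cell types were compared as a check of tissue composition. Among 5 markers of cortical excitatory neurons, Slc17a7, the vesicular glutamate transporter, had an unadjusted p of 0.0304 by limma and an adjusted p of 0.884, with 469 ± 42.9 CPM in ChR2-flfl and 507 ± 28.8 CPM in Avil-ChR2 pups, and the summed level of the 5 was 854 and 890.2 CPM. Of the 5 markers, 3 had a difference above 0 and 2 below, Neurod6 with -0.01 ± 0.0663 and Tbr1 with -0.000961, and the mean of Slc17a7 differed by more than the sum of all 5 did. The 3 markers of inhibitory neurons, 3 of astrocytes, 4 of the oligodendrocyte lineage, 3 of endothelium and 3 of striatal neurons had none at an unadjusted p under 0.05, where 5.41% of all genes were. Summed levels in ChR2-flfl and Avil-ChR2 pups were 200.8 and 207 CPM for inhibitory neurons and 283 and 303 CPM for astrocytes. Among the astrocyte genes, the water channel Aqp4 had 86.9 ± 39.3 and 103 ± 25.5 CPM, a log2 difference of 0.37 ± 0.26, and Aldh1l1 had -0.00777. They were 228 and 231 CPM for the oligodendrocyte lineage and 95.5 and 96.9 CPM for endothelium. The choroid plexus gene Ttr had an unadjusted p of 0.0491 by limma at the very low mean levels of 0.118 and 0.319 CPM. Kl, the other choroid plexus gene tested, had a log2 difference of -0.06 ± 0.125, and Folr1 did not pass the filter. For blood cells, Hbb-bs and Hba-a1 had no such p, with summed levels of 177 and 162 CPM. The microglial genes Cx3cr1 and C1qa had no such p either, with log2 differences of 0.03 ± 0.0766 and 0.07 ± 0.0927 and summed levels of 31.0 and 31.7 CPM. The microglial gene P2ry12 and the erythroid gene Alas2 were empty in all pups. Fewer cells of a type and less RNA per cell cannot be told apart in bulk tissue, and the part of these markers in the synthetase values was not tested.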

How the data were processed

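The deposited table holds 1 column per pup. According to the methods, the authors prepared libraries from mRNA with a stranded kit, aligned the reads with SeqMan NGen to GRCm38, counted them per gene in ArrayStar and scaled them with edgeR TMM factors, which gave CPM on a linear scale with decimal commas. Entries without reads are empty, and use of strand in counting is not given in the sources used here. Each value was a whole multiple of 1 read (100% within 0.05 reads, checked up to 20000 reads).

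CPM were log2 transformed, and values missing or below -5 were set to -5. Genes above -5 in at least 12 of 16 pups were fitted with limma 3.58.1 in R 4.3.3 (lmFit, eBayes with trend). P-values were adjusted by Benjamini-Hochberg over the 21183 genes. The fit was tested on simulated data, and no result given here rests on that test. Sex and run fits had genotype as a covariate. Values within groups are mean ± SD or lowest, median and highest of 8 pups, and ± behind a log2 difference is its SE. Transcript and coding lengths came from GENCODE M21 (GRCm38) and promoters from RefSeq. Because libraries carried no molecular identifiers, depth bounds counting error only.

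The members and lists were chosen with earlier results of these data known. The naming rule took all 35 synthetases, Mars and Avil, in full those with an unadjusted p under 0.05 or with the largest positive or negative difference or highest level of their compartment, and of each pathway list the genes with the lowest and highest t, those on chromosome 10 and Atf4. Boll, C77080, the cell type markers and the other genes outside the rule, and Sars2, Mars2, Tars and Hars as examples, were chosen after their values were seen. Some items of the lists are not reported here and are left out of the counts.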

Additional observations from a re-analysis of the deposited data

Results flagged for a closer look

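Each of 76 sets of 8 pups (the 35 synthetases, Mars and both summed levels, in each genotype) was checked for a pup that stood apart, meaning that its gap to the nearest pup was larger, as a share of the whole range of the group, than Dixon's 95% critical value. Chance alone marks about 1 in 20 such sets, and 5 were marked. Lars2 was marked in both genotypes, with 637 CPM in ChR2-flfl replicate 5, where the next pup had 533 CPM, and with 474 CPM in Avil-ChR2 replicate 6, where the next had 494 CPM. The summed level of the mitochondrial synthetases, to which Lars2 contributes most, was 954 CPM in ChR2-flfl replicate 5 and 840 CPM in the next pup. Farsb stood at 96.4 CPM in Avil-ChR2 replicate 6, with 89.99 CPM in the next pup. The summed level of the cytosolic synthetases was 2146 CPM in ChR2-flfl replicate 6 and 2085 CPM in the next pup.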

How the results depend on the processing

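No synthetase had an adjusted p under 0.05 in any of 28 alternatives of the genotype comparison, 21 of the sex and 21 of the run comparison, in which 1 to 3, 6 to 11 and 7 to 123 of all genes were called. The count at an unadjusted p under 0.05 went from 1 to 0 with median centring, with array weights, in pups 26 to 33 and in pups 35 to 42. Leaving out 1 pup at a time gave 0 to 1, and the p of Yars then lay between 0.0229 and 0.0846. With the replicate block it was 0 as well. Same-numbered pups had correlations from -0.07 to 0.125, and 1 of 8 pairs exceeded 0.1. Among the 8 Avil-ChR2 pups, 2 correlated best with the control of their own number. Such correlations cannot show whether pups were matched by litter or handling. The largest difference among the synthetases was 0.13 in pups 26 to 33 (Sars2) and 0.10 in pups 35 to 42 (Vars), with 4 pups per genotype in each, and 0.0538 to 0.0816 with 1 pup left out. Medians of the cytosolic genes lay between 0.00894 and 0.0253, and of the mitochondrial genes between -0.00749 and 0.0168, where the negative values came from pups 35 to 42 (-0.00265) and from leaving out ChR2-flfl replicate 8 or Avil-ChR2 replicate 5.

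Of the 35 genes, 29 kept the sign of their difference in pups 26 to 33, 24 in pups 35 to 42 and 31 with array weights, and the cause was not tested. Vars was at 0.0129 with array weights, at 0.0614 in pups 26 to 33, and between -0.0474 and 0.00754 with 1 pup left out. Fars2 was at 0.0107 in pups 35 to 42. Lars2 was at 0.0113 with array weights and between -0.0387 and 0.0308 with 1 pup left out, positive without ChR2-flfl replicate 5. Mars stayed between -0.17 and -0.13 in all 28 alternatives, but its adjusted p of 0.0215 rose above 0.05 in 14 of them: in 10 of 16 fits without 1 pup (0.0536 to 0.0845), with median centring (0.125), with the replicate block (0.506), in pups 26 to 33 (1.00) and in pups 35 to 42 (0.884), where fewer pups were used. Limma's voom on the whole reads recovered from the CPM, and sex as a covariate of the run, were added after seeing the data. The planned edgeR and DESeq2 alternatives were not run, and voom took their place. Every synthetase had at least 228 reads in each pup, the lowest being Ears2, and the share of counting error in the spread was not tested. Differences smaller than the half-widths of the intervals could not be resolved with 8 pups per genotype.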
